A study of Homo sapiens with 6 samples.

Results

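Heat shock chaperones of the cytosol and the mitochondrion were followed in SNU-387, an established line grown from a human hepatocellular carcinoma. The set holds 46 genes out of 58219 gene identifiers in the count files, listed by name with no threshold on their values, though with earlier results of these data known. It comprises 2 heat shock factors, 2 cytosolic HSP90 genes, 8 HSP90 co-chaperones, 7 cytosolic HSP70 and HSP110 genes, 2 small heat shock proteins, 8 J-domain proteins, 4 BAG nucleotide exchange factors, 8 TRiC subunits and 5 mitochondrial chaperones. Chaperones of the endoplasmic reticulum are not among them. Both groups were stable lines that expressed a hairpin RNA: the control line carried a non-target hairpin (shNT, 3 libraries) and the other a hairpin against YES1, one of the SRC-family tyrosine kinases (shYES1, 3 libraries). The labels do not say whether the libraries of a group came from separate cultures, so p-values measure only the spread between these libraries, which may be technical. The sources used here give neither the hairpin sequence nor the number of hairpins or clones behind a group.

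Heat shock proteins hold unfolded chains in solution, fold them or pass them on for destruction. J-domain proteins bring clients to HSP70, and nucleotide exchange factors such as the BAG and HSP110 proteins let HSP70 release them. HSP90, aided by its co-chaperones, matures kinases and receptors, and SRC-family kinases are among its best-known clients. TRiC is a closed chamber of 8 different subunits that folds actin and tubulin. HSP60 and HSP10 form a separate chamber in the mitochondrial matrix. When misfolded protein builds up, HSF1 binds heat shock elements, runs of the unit GAA and its complement TTC at a fixed spacing, and switches on the inducible members of these families.

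Stretches of promoter from 9 members are shown first because the units recur both in genes that rose and in genes that fell, and in partner genes that moved apart. Windows run from 250 bases before to 50 bases after an annotated start, on GRCh38.p14, and were taken from RefSeq, where 40 of the 46 members have one. A window was scored for GAANNTTC or TTCNNGAA, each of which reads the same on both strands, and capitals below mark those units. HSPA8 (chr11:123062169-123062201, minus strand) and HSP90AA1 (chr14:102087095-102087142, minus strand) hold 3 units in a row. HSP90AB1 (chr6:44247768-44247853, plus strand) holds such a run at each end of the stretch shown. HSPD1 (chr2:197500058-197500090, minus strand) holds its run at the upstream edge of a window that faces the HSPE1 gene. CHORDC1 (chr11:90223055-90223119, minus strand) has the longest run of those shown. The other stretches shown are HSPA1A (chr6:31815427-31815454, plus strand), HSPA1B (chr6:31827623-31827650, plus strand), HSPB8 (chr12:119178833-119178860, plus strand) and DNAJB1 (chr19:14518427-14518484, minus strand). Further stretches with such units in HSPA8, HSPB8, CHORDC1 and DNAJB1 are not printed. That of HSPA8 (chr11:123062344-123062376, minus strand) also holds 3 units in a row.
HSPA8: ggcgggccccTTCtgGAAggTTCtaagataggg
HSP90AA1: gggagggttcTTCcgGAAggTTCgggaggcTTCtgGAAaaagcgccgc
HSP90AB1: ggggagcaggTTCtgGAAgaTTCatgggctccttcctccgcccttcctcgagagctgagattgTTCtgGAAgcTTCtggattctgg
HSPD1: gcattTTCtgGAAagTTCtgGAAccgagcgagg
CHORDC1: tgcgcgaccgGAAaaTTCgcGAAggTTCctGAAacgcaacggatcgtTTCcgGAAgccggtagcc
HSPA1A: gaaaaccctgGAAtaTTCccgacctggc
HSPA1B: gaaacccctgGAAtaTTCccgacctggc
HSPB8: catcacctccGAAtaTTCctgtgacagg
DNAJB1: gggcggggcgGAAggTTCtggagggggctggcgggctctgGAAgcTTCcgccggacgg

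A pair of units stood in the windows of 21 of 40 member genes (52.5%), against 1469 of 10495 tested genes with a window (14%) and 4737 of all 35116 windows of that length (13.5%). A run of 3 units stood in 7 of 40 member genes (17.5%), against 55 of the 10495 tested genes (0.524%). A match of letters is a description of the window and not a bound site. Among members called higher in shYES1, as defined below, 13 of 24 with a window held a pair of units, and among those called lower 4 of 7 did. The median log2 fold change was 0.22 for member genes with the pair and 0.25 for those without.

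YES1 RNA, the target of the hairpin, stood at 177.7, 180.9 and 179.9 CPM in the shNT libraries and at 42.9, 43.3 and 46.02 CPM in the shYES1 libraries (log2 fold change -2.02, edgeR adjusted p = 7.9e-40). CPM expresses a gene's reads on a fixed total of gene reads, after the trimmed mean method (TMM) had set the libraries on 1 scale. Gene reads numbered 11290889 to 18944148 per library. Of the hepatocyte markers ALB, APOA1, APOA2, TTR and HNF4A were at or near 0 in all libraries and SERPINA1 stood at 15.7 to 20.6 CPM. The epithelial keratins KRT8 and KRT18 were well expressed while KRT19 and CDH1 were near 0. Markers of other cells were low in sum, with 37.0 to 46.4 CPM over 3 leukocyte genes (nearly all CD14, with CD3E at 0) and 23.0 to 25.6 CPM over 3 endothelial genes. Summed over the 3 mesenchymal markers, nearly all of it FN1, the level was 25559 to 28199 CPM in shNT and 16557 to 16726 CPM in shYES1. FN1 and VIM were lower, with log2 fold changes of -0.72 and -0.94, while CDH2 was higher at 0.38. Summed epithelial markers stood at 764 to 774 CPM in shNT and 1070 to 1091 CPM in shYES1. The part of these shifts in the chaperone results was not tested. In bulk RNA a change in the make-up of the culture and a change in RNA per cell cannot be told apart.

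Summed over the set, chaperone RNA took a larger share in the shYES1 libraries, though not in every role. The 46 genes together took 8582, 8682 and 8826 CPM in the shNT libraries and 9672, 9731 and 9590.2 CPM in the shYES1 libraries, a ratio of means of 1.11 with no overlap between groups. As a plain share of gene reads, without the TMM scaling, they took 0.828% to 0.85% in shNT and 0.991% to 1.01% in shYES1. By role, the ratio of mean summed CPM was 0.987 for J-domain proteins and 0.902 for mitochondrial chaperones. The other roles had ratios from 1.055 for cytosolic HSP90 to 1.256 for cytosolic HSP70 and HSP110. These are relative levels and not RNA per cell. DNAJA4, a J-domain protein of the HSP40 family, had no read in the 42866142 gene reads of shNT and 1 in the 46210207 of shYES1, where 3 reads would be 0.07 and 0.0649 CPM, so it was not tested.

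The other 45 members passed the filter on low counts and entered the test. At a Benjamini-Hochberg adjusted p under 0.05 in edgeR's quasi-likelihood test, 29 of the 45 were called higher (64.4%) and 7 lower (15.6%). Over all 14239 tested genes, 32.5% were called higher, 32.8% lower and 65.3% in either direction. A call is thus common in these libraries, and against the background the members had more higher calls and fewer lower calls. The libraries of the groups did not overlap for 35 of the 45 members (77.8%), against 67.9% of all tested genes. The members' median log2 fold change was 0.25, with a range from -0.69 to 0.76, while the median of all tested genes was -0.0047. Against a change of at least 1.2-fold, 12 members passed as higher and 4 as lower, where 16.3% and 20.1% of all tested genes passed. Coefficients of variation between libraries of a group had a median of 2.54% over the tested members and reached at most 9.25%.

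Calls near 0 depend on the scaling. With library size alone, the median of all tested genes moved to 0.092 and 34 members were called higher and 6 lower, with 60.7% of all calls on the higher side. A scaling on genes whose 3' UTR lacks CCTTTC, a sequence whose carriers read lower in these data, moved that median to -0.103 and gave 26 higher and 12 lower, with 37.7% of all calls on the higher side, against 49.7% with TMM. The members' median was 0.35 under the first scaling and 0.15 under the second, above the all-gene median in both. The summed CPM of all members was not recomputed under the second scaling.

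**Figure D1:**
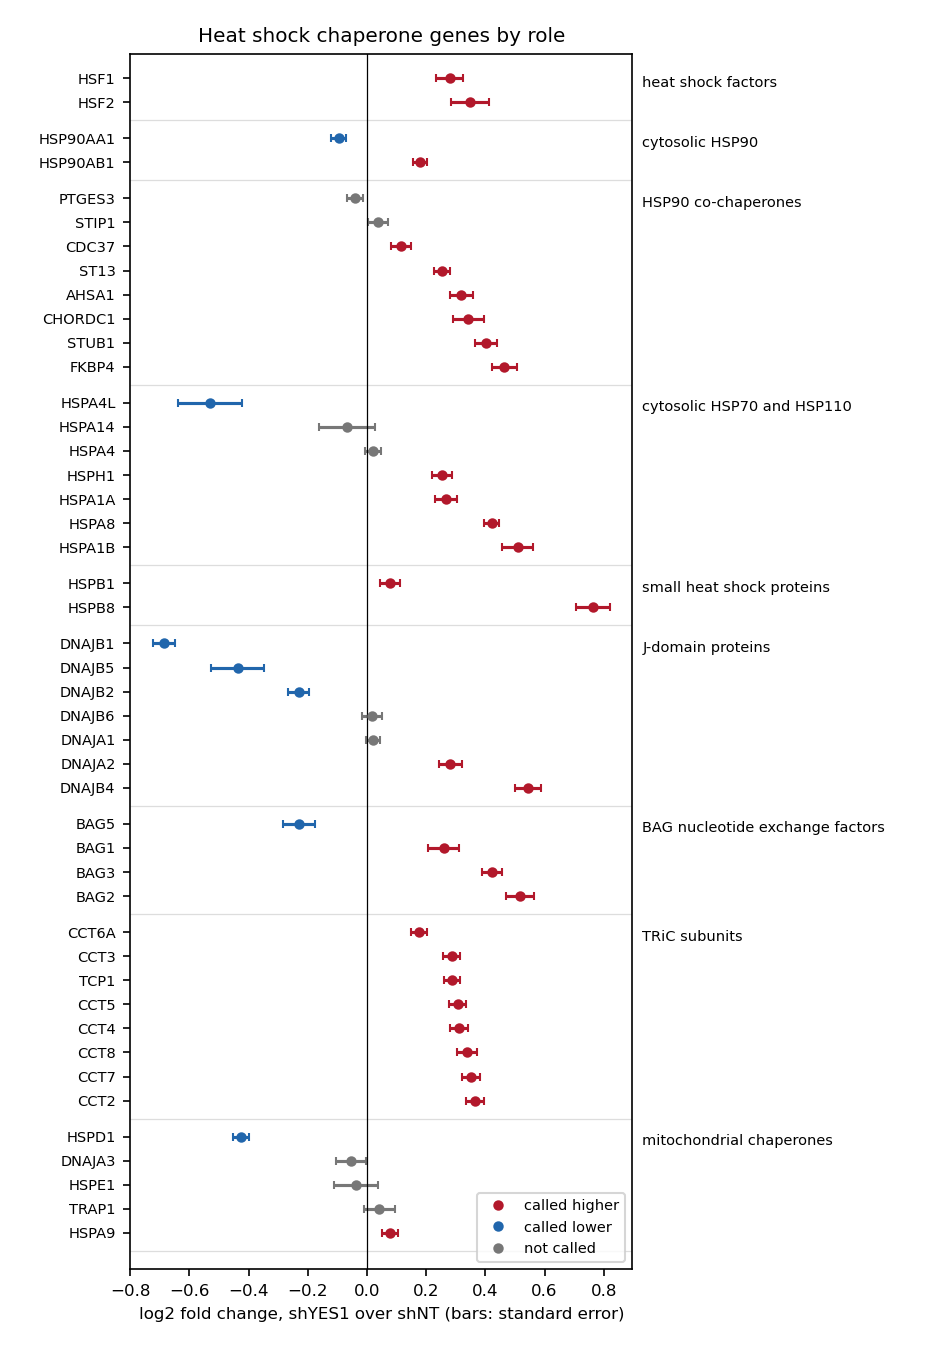
Log2 fold change of shYES1 over shNT for the 45 tested members, grouped by role, with bars for the standard error and colours for the call at an adjusted p under 0.05. All 8 TRiC subunits sit between 0.18 and 0.36, whereas the J-domain proteins spread from -0.69 to 0.54.

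Both heat shock factors were higher in shYES1. HSF1, the main activator of the heat shock response, measured 46.1, 50.9 and 48.4 CPM in shNT and 58.1, 57.3 and 60.6 CPM in shYES1, which is a log2 fold change of 0.28 (SE 0.046, edgeR adjusted p = 9.1e-07). HSF2, a related factor that can pair with HSF1, stood at 23.8, 21.9 and 24.0 CPM in shNT and 27.8, 31.6 and 30.0 CPM in shYES1, a log2 fold change of 0.35 (SE 0.064). All 3 shYES1 libraries lay above the shNT libraries for each factor. The activity of HSF1 is set largely by its assembly and modification, which RNA does not measure.

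The cytosolic HSP90 genes moved apart. HSP90AB1, the constitutive form, rose from 1389, 1406 and 1421 CPM in shNT to 1597, 1595 and 1582 CPM in shYES1, a log2 fold change of 0.18 (SE 0.023, edgeR adjusted p = 3.2e-09). HSP90AA1, the more heat-inducible form, read 910.2, 914 and 934 CPM in shNT and 852, 887 and 843 CPM in shYES1. It was called lower at -0.10 (SE 0.024, adjusted p = 0.00059), but stood at 0.00055 and was not called with library size alone. The ratio of HSP90AA1 to HSP90AB1 reads does not depend on the scaling: it was 0.654 in shNT and 0.541 in shYES1. Its log2 values were -0.61, -0.62 and -0.61 in shNT and -0.91, -0.85 and -0.91 in shYES1, with no overlap. HSP90AB1 had the highest level per length of all members, with 472 CPM per kilobase of exon in shNT against 175 for HSP90AA1.

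Of the 8 HSP90 co-chaperones, 6 were called higher and none lower. FKBP4, the immunophilin that works with HSP90 on steroid receptors, had the largest rise, from 52.2, 55.9 and 55.6 CPM to 74.6, 76.8 and 75.0 CPM (log2 fold change 0.46, SE 0.042). STUB1, the ubiquitin ligase CHIP that marks HSP70 and HSP90 clients for degradation, rose from 74.4, 74.2 and 71.2 CPM to 98.1, 95.9 and 95.8 CPM (0.40, SE 0.037). These 2 genes passed the test against 1.2-fold, and neither had overlapping groups. CHORDC1 rose by 0.34 on the log2 scale, AHSA1, the activator of the HSP90 ATPase, by 0.32, and ST13, the HSP70-interacting protein, by 0.25. CDC37, which delivers kinases to HSP90, was higher by 0.12 (115.1, 120.6 and 123.3 CPM against 134.3, 125.2 and 129.4 CPM), and was not called at 0.02 with the scaling on genes without CCTTTC. PTGES3, the p23 protein that steadies closed HSP90, was not called at -0.04, nor was STIP1, the bridge between HSP70 and HSP90, at 0.04. With the scaling on genes without CCTTTC, PTGES3 was called lower at -0.14, and with library size alone STIP1 was called higher at 0.13.

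Among the 7 cytosolic HSP70 and HSP110 genes, 4 were called higher and 1 lower. HSPA8, the constitutive HSC70, accounted for most of this class and measured 836, 863 and 899 CPM in shNT and 1156, 1174 and 1151 CPM in shYES1. Its log2 fold change of 0.42 (SE 0.025, edgeR adjusted p = 9.5e-20) was far outside the spread between libraries. HSPA1A, a stress-inducible HSP70, rose from 81.4, 77.8 and 83.3 CPM to 97.4, 99.5 and 96.1 CPM (0.27, SE 0.037). HSPA1B, its neighbour on chromosome 6, rose from 34.0, 37.2 and 36.3 CPM to 49.7, 49.3 and 53.5 CPM (0.51, SE 0.051). These 2 genes encode nearly the same protein, reads that map equally well to both are counted for neither, and 920 exon bases of HSPA1B are shared with AL671762.1, annotated on its strand, so their separate values are uncertain.

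HSP110 genes, which act as exchange factors for HSP70, did not move together. HSPH1 rose from 101.4, 102.2 and 101.6 CPM to 118.4, 124.7 and 121.0 CPM (0.25, SE 0.034). HSPA4 stood at 239, 244 and 242 CPM in shNT and 246.5, 243.5 and 245.7 CPM in shYES1 and was not called at 0.02, but it was called higher at 0.12 with library size alone and lower at -0.08 with the scaling on genes without CCTTTC. HSPA4L, the weakest tested member per length, fell from 9.21, 9.46 and 9.31 CPM to 7.0, 5.82 and 6.38 CPM (-0.53, SE 0.11, edgeR adjusted p = 3.7e-05). HSPA14, a ribosome-associated HSP70, was not called at -0.07 (SE 0.095), and 460 of its exon bases are shared with a second gene of the same symbol. The sum over the 7 genes was 1347 ± 35.3 CPM in shNT and 1692 ± 12.7 CPM in shYES1 (SD, n = 3).

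HSPB8, a small heat shock protein, showed the largest rise of any member. It measured 24.3, 28.4 and 25.0 CPM in shNT and 42.9, 44.9 and 44.0 CPM in shYES1, a gain of 69.6% in the fit (log2 fold change 0.76, SE 0.057, edgeR adjusted p = 3.5e-16). HSPB1, the abundant HSP27, overlapped between groups, at 342, 317 and 349 CPM against 370.5, 336 and 356 CPM. It passed narrowly at 0.08 (adjusted p = 0.041), failed with DESeq2 (adjusted p = 0.083) and was at -0.02 with the scaling on genes without CCTTTC. Leaving out single libraries also ended the HSPB1 call, with an edgeR adjusted p of 0.086 without shNT 1, 0.32 without shNT 2, 0.26 without shYES1 1 and 0.11 without shYES1 3. Per length, HSPB1 was the second most abundant member, at 206 CPM per kilobase of exon in shNT, and HSPB8 ranked 34 there.

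BAG proteins dock on HSP70 and release its client, and 3 of the 4 were called higher. BAG2 rose from 37.9, 38.0 and 38.5 CPM to 55.0, 52.1 and 55.9 CPM (log2 fold change 0.52, SE 0.048). BAG3 rose from 104.7, 103.2 and 104.7 CPM to 144.7, 140.4 and 134.6 CPM (0.42, SE 0.034), and BAG1 by 0.26 on the log2 scale. BAG5, by contrast, fell from 40.7, 43.6 and 44.9 CPM to 35.5, 39.2 and 36.5 CPM (-0.23, SE 0.053). No BAG gene had overlapping groups.

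**Figure D2:**
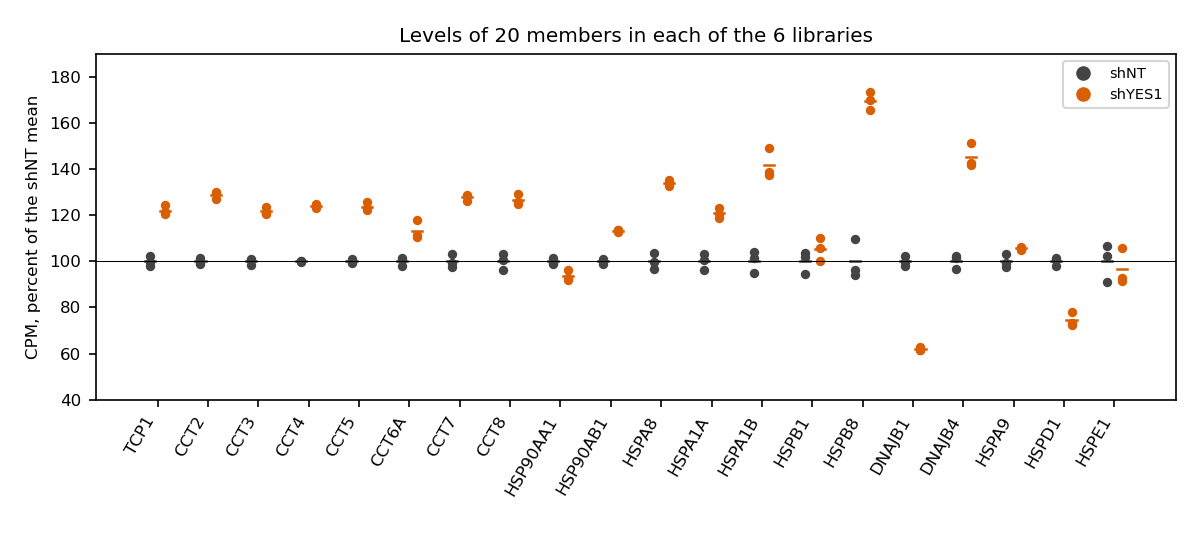
CPM of 20 members in each library as a percent of the shNT mean of that gene (vertical axis), with 1 point per library, grey for shNT and orange for shYES1, and a dash for each group mean. HSPB8 lies near 170% and DNAJB1 near 62% of the control, while the libraries of HSPB1 and HSPE1 overlap.

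Of the 7 tested J-domain proteins, 2 were called higher (28.6%) and 3 lower (42.9%). Over all tested genes these shares were 32.5% and 32.8%, and 7 genes are too few to set the class apart from them. DNAJB1, the heat-inducible HSP40 that partners HSPA1A and HSPA8, showed the largest fall of any member, from 104.3, 106.8 and 102.4 CPM to 65.9, 64.3 and 64.5 CPM. On the log2 scale this was -0.69 (SE 0.037, edgeR adjusted p = 3.6e-21), a loss of 37.8%. DNAJB4, the closely related HLJ1, went the other way, from 49.5, 52.4 and 52.0 CPM to 73.3, 72.8 and 77.7 CPM (0.54, SE 0.043). A GIPC2 exon overlaps 78 exon bases of DNAJB4. DNAJB5 fell from 13.8, 13.6 and 13.1 CPM to 10.7, 9.75 and 9.45 CPM (-0.44, SE 0.090). DNAJB2, which sorts ubiquitinated clients, fell from 101.8, 99.7 and 95.8 CPM to 85.6, 82.5 and 84.3 CPM (-0.23, SE 0.037). In each of these genes the 3 shYES1 libraries lay clear of the 3 shNT libraries.

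In the DNAJA subgroup, DNAJA2 rose by 0.28 (SE 0.039) and DNAJA1, the most abundant J-domain gene, was level at 455, 461 and 467 CPM against 472, 472 and 460 CPM (0.02, not called). DNAJB6, a suppressor of polyglutamine aggregation, was also not called at 0.02. Both DNAJA1 and DNAJB6 were called higher with library size alone, at 0.12 and 0.11, and lower with the scaling on genes without CCTTTC, each at -0.08. Rises and falls offset each other: the 8 J-domain genes summed to 906 ± 4.89 CPM in shNT and 894 ± 6.28 CPM in shYES1 (SD, n = 3).

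All 8 TRiC subunits were higher in shYES1, and by similar amounts. TCP1, the founding subunit, measured 281, 286 and 294 CPM in shNT and 357, 348 and 345 CPM in shYES1 (log2 fold change 0.29, SE 0.027). CCT2 had the largest change, from 140.3, 141.7 and 144.2 CPM to 180.4, 184.7 and 184.2 CPM (0.36, SE 0.030, edgeR adjusted p = 1.0e-14). CCT6A had the smallest, from 246, 253 and 254 CPM to 278, 296 and 279 CPM (0.18, SE 0.028, adjusted p = 4.8e-07). The median over the subunits was 0.31, and their fold changes had a standard deviation of 0.059 against 0.30 over all tested members. No subunit had overlapping groups. CCT2, CCT4, CCT7 and CCT8 passed the test against 1.2-fold.

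The remaining subunits filled the range between these. CCT3 rose by 0.29, CCT4 by 0.31, CCT5 by 0.31, CCT7 by 0.35 and CCT8 by 0.34 on the log2 scale. Summed over the complex, the level was 1536 ± 19.0 CPM in shNT and 1883 ± 14.9 CPM in shYES1 (SD, n = 3), a ratio of 1.23. The count of 8 higher out of 8 was the same with library size alone (0.27 to 0.46) and with the scaling on genes without CCTTTC (0.08 to 0.27). Although the assembled chamber holds each subunit in equal number, levels per kilobase of exon differed among the 8 genes, from 32.9 CPM for CCT2 to 64.3 CPM for CCT6A in shNT.

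Of the 5 mitochondrial chaperones, 1 was called higher and 1 lower. HSPD1, the HSP60 chamber, fell from 363, 376 and 373 CPM to 269, 289 and 272 CPM, a log2 fold change of -0.43 (SE 0.028, edgeR adjusted p = 2.4e-18) or a loss of 25.6%. Among the 45 tested members its rank by level per length went from 7 to 12. HSPA9, the mitochondrial HSP70 mortalin, was called higher at 0.08 (312, 317 and 329 CPM against 339.7, 335 and 337 CPM, adjusted p = 0.0090), lost the call without shNT 1 (edgeR adjusted p = 0.053) and was at -0.02 with the scaling on genes without CCTTTC. TRAP1, the mitochondrial HSP90, was not called at 0.04, though it was called higher at 0.14 with library size alone. DNAJA3, the J-domain partner of mortalin, was not called at -0.05, though it was called lower at -0.15 with the scaling on genes without CCTTTC. The 5 genes summed to 788 ± 14.6 CPM in shNT and 711 ± 7.81 CPM in shYES1 (SD, n = 3), and HSPD1 carried the difference.

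HSPE1, the HSP10 lid of the HSP60 chamber, was not called at -0.04 (SE 0.075), with 17.8, 20.8 and 19.96 CPM in shNT and 18.1, 17.9 and 20.7 CPM in shYES1. Its level is uncertain for reasons of counting. HSPE1 shares 192 exon bases with the read-through gene HSPE1-MOB4, and 26 annotated pseudogenes of it took 126 reads beside its own 1721. HSPD1 has 18 annotated pseudogenes, which took 327 reads beside its 28461. HSPD1 and HSPE1 lie head to head on chromosome 2 and are known to be read from a common promoter region. The HSPE1 window, chr2:197500129-197500428 on the plus strand, begins just past the run of units printed above for HSPD1 and holds no pair of its own.

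Within-library ratios of partner genes do not depend on how libraries are scaled, and 6 pairs were compared. They do depend on how reads are assigned, and the counts of HSPA1A, HSPA1B and HSPE1 are uncertain for the reasons given above. The ratio of HSPA1B to DNAJB1 had the largest difference, with log2 values of -1.62, -1.52 and -1.50 in shNT and -0.41, -0.38 and -0.27 in shYES1, or 0.343 and 0.783 HSPA1B reads per DNAJB1 read. Both genes are textbook targets of HSF1. Their log2 fold changes were 0.51 and -0.69, the latter the largest fall of any member. HSPA1A, which rose less than HSPA1B at 0.27, was not paired with DNAJB1. HSPA8 to DNAJA1, the main constitutive HSP70 with its J-domain partner, had values of 0.88, 0.91 and 0.94 in shNT and 1.29, 1.31 and 1.32 in shYES1 on the log2 scale, a difference of 0.40. The difference in mean log2 ratio, shYES1 minus shNT, was -0.37 for HSPD1 to HSPE1, -0.275 for HSP90AA1 to HSP90AB1, -0.23 for HSPA1A to HSPA1B and 0.23 for HSPH1 to HSPA4. The groups did not overlap for any of the 6 pairs. Each gave an exact two-sided permutation p of 0.1, which is the smallest that 3 against 3 libraries allow, and 0.1 after adjustment over the 6 pairs. Ratios of other gene pairs were not compared, so how common such separation is remains unknown. Taken singly, 67.9% of all tested genes had no overlap between groups.

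**Figure D3:**
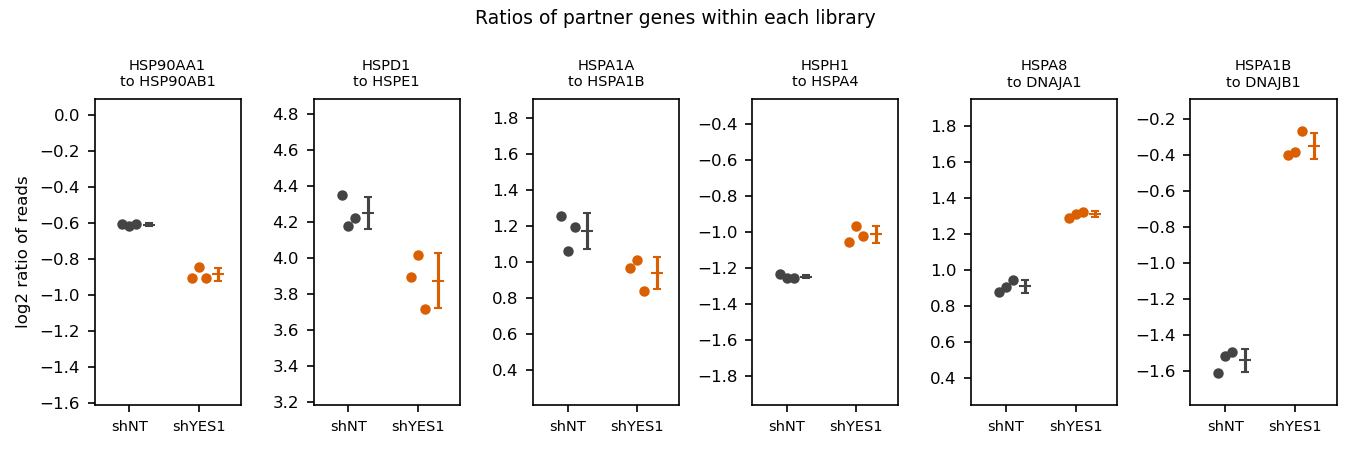
Log2 ratio of reads of 6 pairs of partner genes (vertical axes, all spanning the same range) in each shNT library (grey) and shYES1 library (orange), with mean and SD beside the points. The groups are separate in every panel, and the shift is largest for HSPA1B to DNAJB1, where the means are -1.54 and -0.35. Counts of HSPA1A, HSPA1B and HSPE1 are uncertain, as given in the text.

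Levels per length set the members in a wide order. After HSP90AB1 and HSPB1 in shNT came HSPA8 with 179, HSP90AA1 with 175, DNAJA1 with 169, PTGES3 with 106.8 and HSPD1 with 87.3 CPM per kilobase of exon, and HSPA4L was last with 0.803. HSPA8, HSP90AA1 and DNAJA1 lay within a narrow band of that order in shNT. HSPA8 left this band in shYES1, at 239 CPM per kilobase of exon, and passed HSPB1 at 217. These levels use the union of annotated exons, which understates genes with long unused exons.

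That genes with CCTTTC in the 3' UTR read lower in shYES1 was known from earlier results of these data, so the members' sites are a description and not independent support. Of the tested genes with an annotated 3' UTR, 6363 of 11966 hold it (53.2%). Their median log2 fold change was -0.06, and that of the others 0.10. Among the members, 15 of 45 hold it (33.3%), with 10 called higher and 3 lower and a median of 0.27, and the 30 without it have a median of 0.18 with 19 called higher and 4 lower. DNAJB1, with the largest fall of any member, holds 2 sites, and HSPD1, at -0.43, holds 1. HSPA4L and DNAJB5, which fell more than HSPD1 at -0.53 and -0.44, hold no site. FKBP4, which rose, holds 3. The sites are on the minus strand for DNAJB1 (chr19:14515866-14515891 and chr19:14515893-14515918) and HSPD1 (chr2:197486662-197486687) and on the plus strand for FKBP4 (chr12:2803631-2803656, the first of its 3), on GRCh38, with CCTTTC in capitals.
DNAJB1, site 1: gatttctggaCCTTTCtaccagttgt
DNAJB1, site 2: tgaccagggaCCTTTCcagagctcaa
HSPD1: agttaagcagCCTTTCtgtggagagt
FKBP4: ttttcctcatCCTTTCcctctcccag

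Neighbouring genes of the folding system were read from 6 lists, of which 101 genes were measured and 91 tested, with 36 called higher and 22 lower and a median log2 fold change of 0.08. These shares, 39.6% and 24.2%, lie nearer to the background of all genes than those of the 45 tested members do. Among 31 other tested heat shock and J-domain genes, 10 were higher (32.3%) and 8 lower (25.8%), against 32.5% and 32.8% of all tested genes. DNAJC8, a J-domain protein of the spliceosome, fell by 2.06 on the log2 scale, from 140.9, 142.0 and 145.9 CPM to 35.2, 34.1 and 33.9 CPM, close to the -2.02 of YES1. DNAJB14, in the endoplasmic reticulum membrane, fell by 0.75, while its paralog DNAJB12 rose by 0.51. HSPA6, an HSP70 that is nearly silent without stress, had 9 reads over the shNT libraries and 5 over the shYES1 libraries, and CRYAB had 7 and 11, so neither could be tested.

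Of 15 other tested HSP90 co-chaperones, 8 were higher and 3 lower. CDC37L1, a relative of CDC37, rose from 8.97, 8.40 and 10.4 CPM to 16.4, 17.8 and 17.98 CPM (0.90, SE 0.089), and PPP5C, the phosphatase PP5, rose by 0.43. FKBP5, an immunophilin and glucocorticoid target, fell by 0.40 while its paralog FKBP4 rose, and PIH1D1 fell by 0.23. On the list of prefoldin and tubulin folding genes, 8 of 16 were higher and 3 lower. TBCB, a tubulin folding cofactor, rose from 40.7, 39.9 and 39.6 CPM to 80.4, 71.8 and 78 CPM (0.95, SE 0.047), although 194 of its exon bases overlap another gene on its strand. The phosducin-like partners of TRiC split, with PDCL3 up by 0.59 and PDCL down by 0.85 (-0.849), and URI1 fell by 0.33.

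In the mitochondrion, 5 of 15 partner and protease genes were higher (33.3%) and 3 lower (20%). Over all tested genes these shares were 32.5% and 32.8%. CLPX rose by 0.45 and CLPP by 0.37, the ATPase and the peptidase of the matrix protease that degrades misfolded proteins. YME1L1, an inner membrane protease, fell from 301, 295 and 305 CPM to 184, 182.5 and 183 CPM (-0.71, SE 0.028), and GRPEL1, the exchange factor of mortalin, fell by 0.35. Among 6 regulators of HSF1, 4 were higher and 1 lower, with FBXW7, the ubiquitin ligase subunit that targets HSF1, up by 0.62, HDAC6 up by 0.47 and SIRT1, the deacetylase that prolongs HSF1 binding, down by 0.52 (-0.521). HSBP1, the HSF1-binding inhibitor, was not called at 0.07 (edgeR adjusted p = 0.093). Of 8 heat-inducible genes that are not chaperones, 1 was called higher and 4 lower, among them RGS2, which fell by 0.50. UBB, a polyubiquitin gene, was called higher at 0.37 (edgeR adjusted p = 0.036), with 251, 276 and 236 CPM against 365, 318 and 299.9 CPM. The UBB call was lost on unstranded counts (adjusted p = 0.26), with the scaling on genes without CCTTTC (0.090), and without shNT 1 (0.10), shNT 3 (0.11) or shYES1 2 (0.079).

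**Figure D4:**
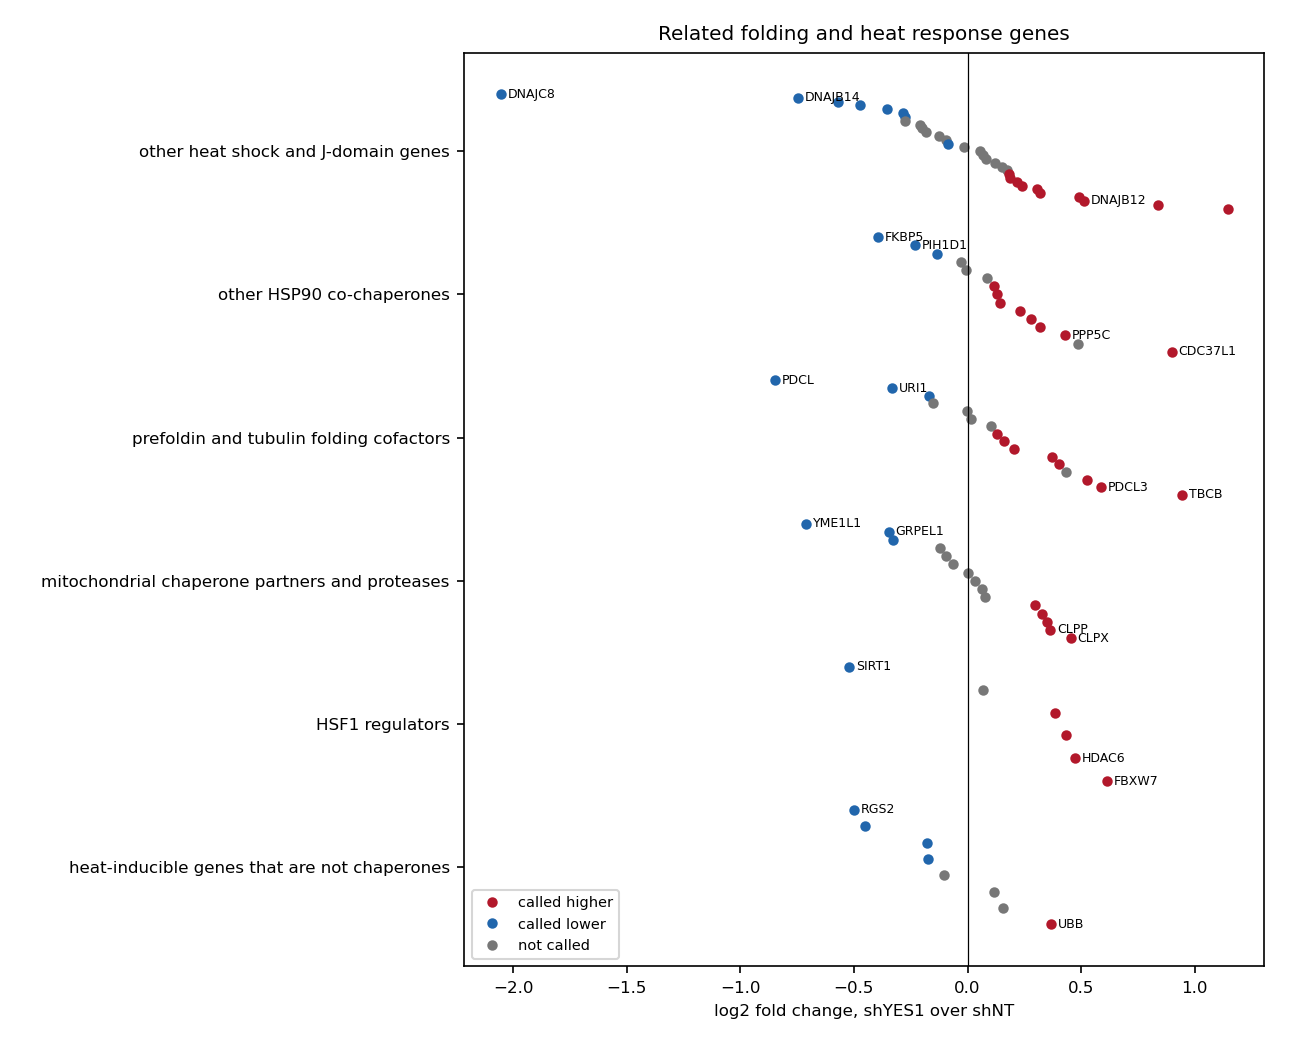
Log2 fold change of shYES1 over shNT (horizontal axis) for the 91 tested genes of 6 related lists, 1 point per gene, coloured by call, with the genes named in the text labelled. Most points lie within 1 unit of 0, DNAJC8 stands alone at -2.06, and unlabelled coloured points beyond a labelled one had a mean under the 5 CPM set for naming.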

How the data were processed

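The deposited files hold unnormalized gene counts, 1 file per library. CASAVA 1.8.2, Trimmomatic 0.35, STAR 2.5.1b and GRCh38 are named in the submitters' processing notes, and per the labels RNA was poly(A) selected with a KAPA stranded kit. The reverse-strand column held 93.45% to 93.97% of stranded gene reads and was used. Entries naming no gene held 19.8% to 20.32% of reads and were left out. Reads that map to several places are not counted, and neither are reads that fall in several genes. Symbols, exon lengths and 3' UTRs came from GENCODE release 29, which matched 57881 of 58219 identifiers, since the sources used here do not give the authors' annotation, and promoters came from RefSeq.

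Counts were fitted in R 4.3.3 with edgeR 4.0.16 (filterByExpr with minimum count 10 and minimum total 15, TMM, robust quasi-likelihood), and p-values were adjusted by Benjamini-Hochberg over all 14239 tested genes. A standard error is the log2 fold change divided by the square root of F. The step was checked on simulated data. Alternatives were RLE or library-size scaling, scaling on genes without CCTTTC, DESeq2 1.42.0, limma 3.58.1 voom, other filters, unstranded counts, a test against 1.2-fold, a replicate block and leaving out each library.

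All members are named. From a related list at most 2 rises and 2 falls are named, the largest of its called genes whose mean reached 5 CPM, and HSPA6, CRYAB and HSBP1 are named besides. Not every gene named by this rule is reported here. Members and lists were chosen with earlier results of these data known. TBCE, on 1 of the lists, was not analysed here.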

Additional observations from a re-analysis of the deposited data

How the results depend on the processing

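Under 15 alternatives that kept the question the same, 34 of the 45 tested members stayed called in the same direction or stayed not called. Members that stayed not called were counted whatever their sign. The test against 1.2-fold asks for more and left 12 members higher and 4 lower, 19 related genes higher and 13 lower, and 2324 of all genes higher and 2861 lower. Scaling on genes without CCTTTC raised the members called lower to 12 and the related genes called lower to 36. That scaling turned the log2 fold changes of HSPA4 (-0.0779), HSPB1 (-0.0209), DNAJA1 (-0.0786), DNAJB6 (-0.0834) and HSPA9 (-0.0207) below 0. STIP1 and TRAP1 also turned below 0 with that scaling, but were called neither there nor with TMM. Library size alone put HSP90AA1 at 0.00055. PTGES3, HSPA14, HSPE1 and DNAJA3 also moved above 0 with library size alone, but were called neither there nor with TMM. The cause was not tested, beyond the shift of the median of all genes given above. DESeq2 called 28 members higher and 7 lower. Leaving out 1 library gave 27 to 29 members higher and 7 lower, 31 to 35 related genes higher and 21 to 24 lower.

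No pairing of the groups by sample number was seen. Deviations of same-numbered libraries correlated at 0.0116, 0.0252 and 0.0122, and those of other numbers at -0.038 to 0.0248. Joint culture or processing that left no shared deviation would not be seen this way. With the sample number as a replicate block, 29 members were called higher and 7 lower, as without it. Over all genes the replicate block gave 4628 higher and 4669 lower, against 4623 and 4676. Members near 10 CPM had the widest errors, with a standard error of 0.11 for HSPA4L and 0.095 for HSPA14, so changes no larger than those errors were not detectable there.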
